A study of Homo sapiens
Mus musculus with 2 samples.

Results

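Ido1 encodes indoleamine 2,3-dioxygenase 1, and its row was taken from the count tables of 2 single-cell libraries of mouse colonic epithelium as 1 gene of 25504. Both libraries, called replicates 1 and 2, come from 1 wild-type C57Bl6 mouse, hold different cells and were sequenced together. The tissue was released with EDTA, collagenase and DNase, enriched for viable cells and mixed with cells of the human leukaemia line K562, which were not analysed here. There is no treatment and no second genotype, so every comparison is between kinds of barcode within the libraries, a barcode being the RNA of 1 droplet. A goblet barcode had at least 2% of its unique molecular identifiers (UMIs, tags that each stand for 1 captured molecule) from Zg16, a goblet cell lectin gene. This rule took 443 of 2402 barcodes, 354 in replicate 1 and 89 in replicate 2, and 320 and 82 of them were used after probable doublets had been left out. The gene and this class were chosen with the values of Ido1 known, so the levels of Ido1 by class are a description without a test.

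The enzyme contains haem and opens the indole ring of tryptophan, the first and rate-limiting step of the kynurenine pathway. Later enzymes turn kynurenine into kynurenic acid, into 3-hydroxykynurenine or, further on, into the precursor of NAD, and kynurenine and some of its products bind the aryl hydrocarbon receptor. Interferon-gamma is the best known inducer of the gene, which is otherwise known from dendritic cells and macrophages. Goblet cells make the mucus of the colon and mature as they move from the crypt towards the surface, and deep crypt secretory cells are the Reg4-expressing secretory cells at the crypt base.

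The class carried goblet genes in both libraries, though not every label marker was highest in it. Muc2, the main gel-forming mucin, had a UMI in 99.7% and 100% of goblet barcodes, Fcgbp, a mucus protein, in 97.8% and 100%, and Tff3, a trefoil peptide, in 99.1% and 98.8%. Atoh1, the secretory lineage factor, was found in 65.6% and 54.9%, and Capn9, a calpain gene, in 61.9% and 58.5% against 14.8% and 18.9% of deep crypt secretory barcodes. Muc2 was not restricted to the class. A UMI of it was held by 78.4% and 76.5% of colonocyte and 100% and 99.4% of deep crypt secretory barcodes. Atoh1 was found in 73.3% and 56.6% of deep crypt secretory barcodes. In their summed share of UMIs, Atoh1, Spdef, Spink4 and Agr2 stood higher in deep crypt secretory than in goblet barcodes in both libraries. Muc2, Fcgbp, Clca1, Tff3, Sytl2, Capn9 and Bcas1 stood higher in goblet barcodes. The 11 label markers in the tables made up a median of 7.76% and 6.57% of the UMIs of a goblet barcode. Medians were 3.07% and 2.20% in deep crypt secretory barcodes, 0.188% and 0.154% in crypt barcodes and 0.104% and 0.0718% in colonocyte barcodes. The genes of other classes were present in goblet barcodes too, with colonocyte markers at a median of 0.927% and 0.773% of UMIs and deep crypt markers at 0.228% and 0.184%. The other classes were cut from their own markers below the Zg16 limit and are ranges of a share, not types. Within 20% of the Zg16 limit lay 54 barcodes of replicate 1 and 12 of replicate 2.

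Ido1 stood highest in goblet barcodes in both libraries. In replicate 1, 114 of 320 goblet barcodes held at least 1 Ido1 UMI, a share of 35.6% (95% exact binomial interval 30.4% to 41.1%). In replicate 2, 31 of 82 did, a share of 37.8% (27.3% to 49.2%). Summed over the class, the gene stood at 399 CPM (counts per 1000000 UMIs, 95% exact Poisson interval 368 to 431) in replicate 1, from 632 UMIs. It stood at 431 CPM (379 to 487) in replicate 2, from 254 UMIs. The libraries overlapped in both measures. All intervals given here cover counting error only.

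The order of the other classes was not the same in both libraries. Deep crypt secretory barcodes held Ido1 in 28 of 345 (8.12%) and 18 of 159 (11.3%), at 27.2 and 61.6 CPM. Colonocyte barcodes, the absorptive cells, held it in 48 of 495 (9.70%) and 13 of 132 (9.85%), at 34.3 and 50.2 CPM. The Poisson intervals of these classes overlapped within each library, so neither ranked above the other. Crypt barcodes, defined by stem and cell cycle genes, were lowest with 4 of 227 (1.76%) and 5 of 70 (7.14%), at 4.60 and 12.3 CPM. Goblet barcodes had 14.7 times (10.9 to 20.1) and 6.996 times (5.22 to 9.52) the level of deep crypt secretory barcodes. They had 11.6 times (9.29 to 14.7) and 8.59 times (6.23 to 12.1) that of colonocyte barcodes, and 86.6 times (39.6 to 237) and 35.03 times (15.9 to 96.4) that of crypt barcodes. Median depths were 4834 and 7227.5 UMIs in goblet, 4979 and 4809 in deep crypt secretory, 4779 and 6220.5 in colonocyte and 5643 and 6033 in crypt barcodes.

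**Figure D1:**
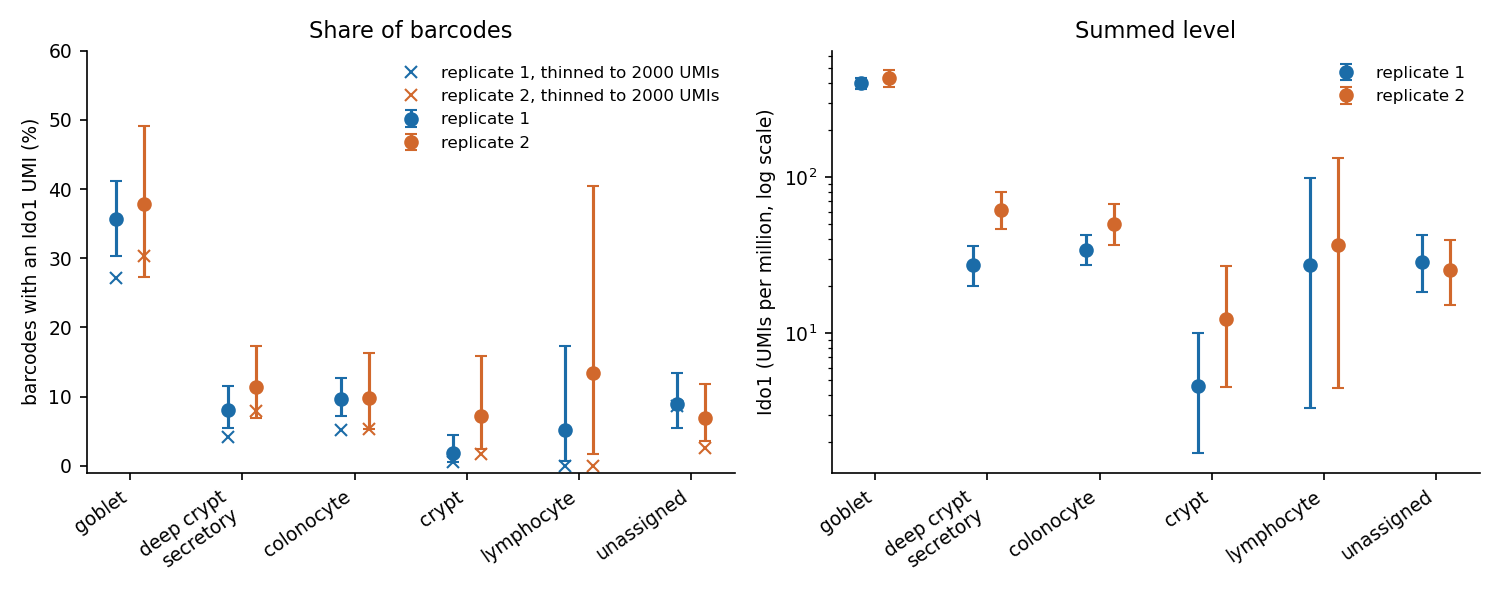
Ido1 by class of barcode in the 2 libraries. Left, the share of barcodes with an Ido1 UMI with its 95% exact binomial interval. Crosses are the share after thinning to 2000 UMIs, with shallower barcodes left out. Right, the summed level in CPM on a log scale with its 95% exact Poisson interval. Goblet barcodes stand at 399 and 431 CPM, above each other class, and the wide intervals of lymphocyte barcodes come from 39 and 15 barcodes.

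The goblet share was also the highest at equal depth. With every barcode thinned to 2000 UMIs, 27.1% of 247 goblet barcodes of replicate 1 and 30.3% of 66 of replicate 2 kept an Ido1 UMI. The thinned shares were 4.17% and 7.87% in deep crypt secretory, 5.12% and 5.26% in colonocyte and 0.495% and 1.64% in crypt barcodes. Shallower barcodes were left out here, 73 and 16 of them goblet. Free RNA in droplets was judged from barcodes with T cell genes, which should lack Ido1. Of these, 2 of 39 (5.13%, 0.627% to 17.3%) and 2 of 15 (13.3%, 1.66% to 40.5%) held an Ido1 UMI, at 27.3 and 36.7 CPM and median depths of 1659 and 2426 UMIs. Their median share of myeloid markers was 0.244% and 0.146%, so the class is not free of genes of other immune cells. The shares in deep crypt secretory, colonocyte and crypt barcodes lay inside these intervals, which rest on 4 positive barcodes of lower depth, and were not told apart from free RNA. In replicate 1 the level in crypt barcodes (1.69 to 10.02 CPM) was below those in deep crypt secretory (20.04 to 36.0 CPM) and colonocyte barcodes (27.4 to 42.3 CPM). The goblet share lay above the interval in replicate 1 and inside the wide one of replicate 2, where the level was 11.8 times that of the T cell barcodes (3.22 to 97.6).

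A few barcodes outside the goblet class held many Ido1 UMIs. At least 5 were found in 54 and 12 goblet barcodes and in 11 other barcodes of both libraries together. The highest of these were a deep crypt secretory barcode of replicate 2 with 20 UMIs, 1 of replicate 1 with 13, and colonocyte barcodes of replicate 2 with 14 and 12. Without its top barcode the deep crypt secretory level was 19.9 CPM in replicate 1 and 39.9 CPM in replicate 2. None of the 11 barcodes reached 1% Zg16, and the highest share among them was 0.655%.

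Among goblet barcodes Ido1 was very uneven. No Ido1 UMI was found in 206 goblet barcodes of replicate 1 and 51 of replicate 2. A single UMI was found in 34 and 4, 2 to 4 UMIs in 26 and 15, 5 to 9 in 36 and 6, and 10 or more in 18 and 6. The highest count was 40 UMIs in replicate 1 and 41 in replicate 2. Among positive barcodes the level ran from 110 to 8024 CPM with a median of 871 CPM in replicate 1. In replicate 2 it ran from 82.8 to 4098 CPM with a median of 868 CPM. The 32 and 9 goblet barcodes richest in Ido1 held 65.0% and 74.8% of all Ido1 UMIs of the class. The variance of the count was 10.2 and 19.1 times its mean.

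**Figure D2:**
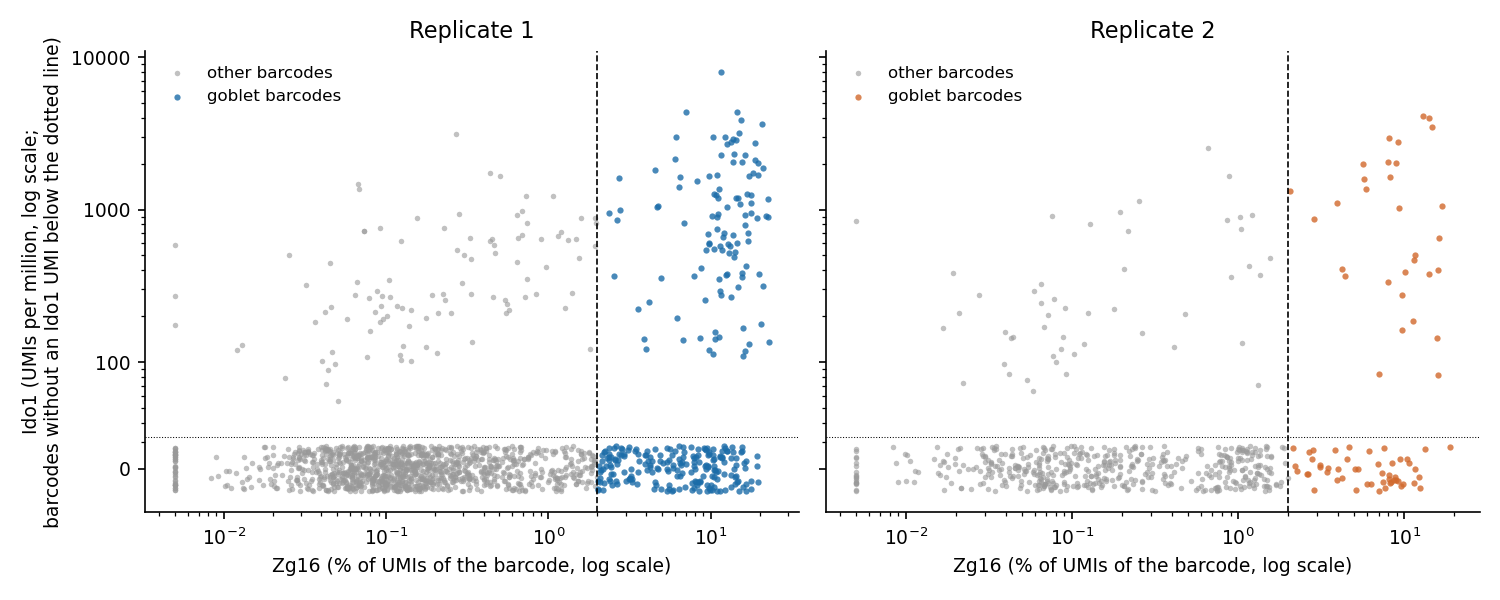
Each point is 1 barcode, with its Zg16 share of UMIs on the horizontal log axis and its Ido1 level in CPM on the vertical log axis; barcodes without an Ido1 UMI are spread below the dotted line, barcodes without Zg16 stand at the left edge, and the dashed line is the 2% limit of the goblet class. Of all barcodes with at least 5 Ido1 UMIs, 54 and 12 lie to the right of the limit and 11 to the left of it.

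Ido1 followed the goblet gene Zg16 within the class. In replicate 1 the share of positive barcodes was 12.1% in the tercile (1 of 3 equal parts) of goblet barcodes with the least Zg16, 33.6% in the middle tercile and 61.3% in the highest tercile. In replicate 2 it was 21.4%, 33.3% and 59.3%. The level was 80.2, 349 and 717 CPM in replicate 1 and 131, 530 and 541 CPM in replicate 2. The lowest and the highest tercile did not overlap in their intervals of the level in either library, while the upper 2 terciles of replicate 2 did. After thinning to 2000 UMIs the shares were 9.23%, 18.7% and 48.4% in replicate 1 and 3 of 20, 6 of 23 and 11 of 23 barcodes in replicate 2. Just outside the limit, at 1.5% to 2% Zg16, 6 of 44 and 1 of 16 barcodes were positive. Just inside it, at 2% to 2.5%, 1 of 30 and 1 of 4 were. The rise therefore lay well above the limit, since at 8% Zg16 or more 92 of 178 (51.7%) and 20 of 40 barcodes were positive.

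The markers of deep crypt secretory cells ran the other way. Over terciles of goblet barcodes from the least to the most of Reg4, Nov, Ccl6, Txndc5 and Kit together, the positive share was 58.9%, 37.4% and 10.4% in replicate 1. It was 42.9%, 51.9% and 18.5% in replicate 2, where the lower 2 terciles had overlapping intervals. The level in the highest tercile was 58.3 and 72.9 CPM against 754 and 594 CPM in the lowest tercile. Goblet barcodes that were both in the highest Zg16 tercile and in the lowest deep crypt tercile were positive in 44 of 60 (73.3%) and 6 of 12. Those in neither were positive in 30 of 167 (18.0%) and 9 of 39 (23.1%). In replicate 2 the highest share was in barcodes of the highest Zg16 tercile alone, 10 of 15 (66.7%), with an interval that overlapped that of both together. The level of Ido1 did not rise with depth. From the shallowest to the deepest tercile the positive share was 30.8%, 31.8% and 44.3% in replicate 1 and 25.0%, 51.9% and 37.0% in replicate 2, and the level was 548, 408 and 363 CPM and 449, 565 and 353 CPM.

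**Figure D3:**
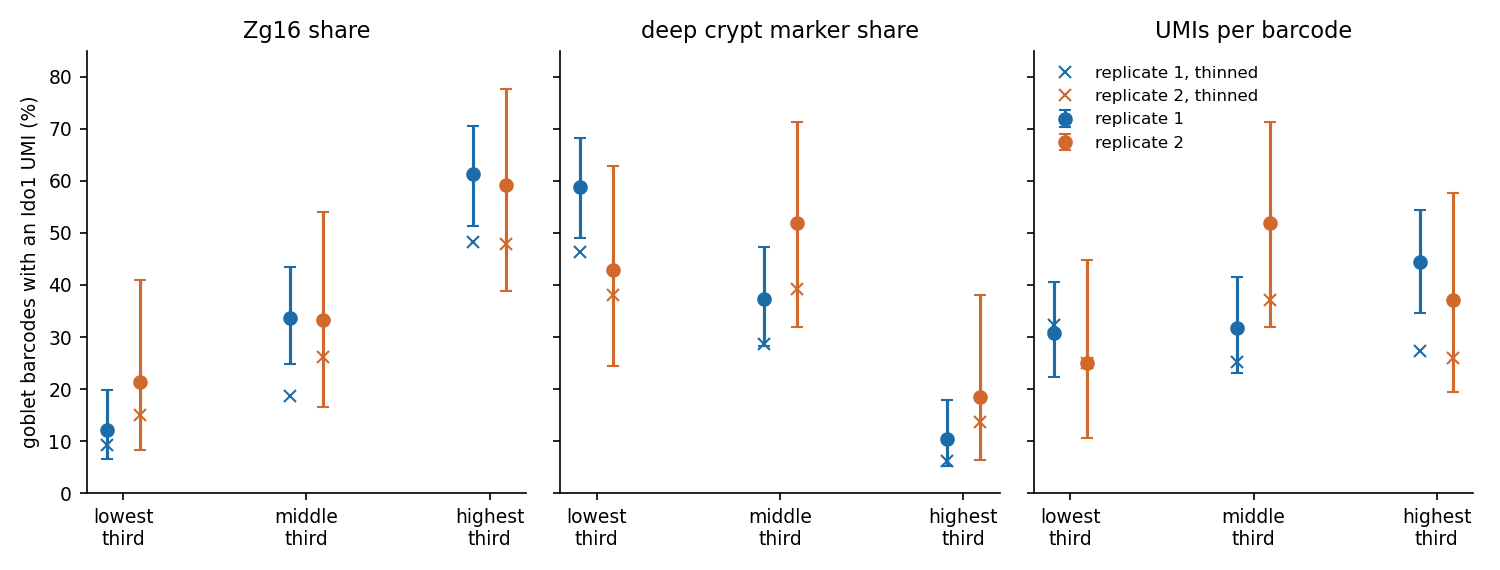
The share of goblet barcodes with an Ido1 UMI (vertical axis, percent) in terciles of each library by Zg16 share, by the summed share of 5 deep crypt secretory markers and by depth. Points carry 95% exact binomial intervals and crosses are the shares after thinning to 2000 UMIs; in replicate 1 the share rises from 12.1% to 61.3% with Zg16 and falls from 58.9% to 10.4% with the deep crypt markers.

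The other genes of the kynurenine pathway had few UMIs in goblet barcodes. Ido2, the paralogue, had 6 and 3 UMIs in all goblet barcodes (3.79 and 5.09 CPM), and Tdo2, the tryptophan dioxygenase known from liver, had 1 and 1. Afmid, the formamidase that follows Ido1, stood at 6.31 and 6.78 CPM in goblet barcodes. Kmo, which hydroxylates kynurenine, stood at 8.83 and 10.2 CPM, and Kynu, the kynureninase, at 8.83 and 13.6 CPM. These 2 enzymes were about as frequent in deep crypt secretory barcodes, with Kmo at 6.23 and 14.3 CPM and Kynu at 9.62 and 13.2 CPM. Downstream, Haao had 1 and 0 UMIs in goblet barcodes, Qprt, the NAD branch enzyme, 1 and 0, and Acmsd, which diverts the branch, 17 and 11. Of the aminotransferases that make kynurenic acid, Ccbl1 stood at 13.9 and 1.70 CPM, Ccbl2 at 13.2 and 15.3 CPM, Aadat at 1.89 and 0 CPM and Got2, also a mitochondrial aspartate aminotransferase, at 54.3 and 47.5 CPM. Levels of different genes are 3' tag counts in CPM and were not corrected for capture.

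**Figure D4:**
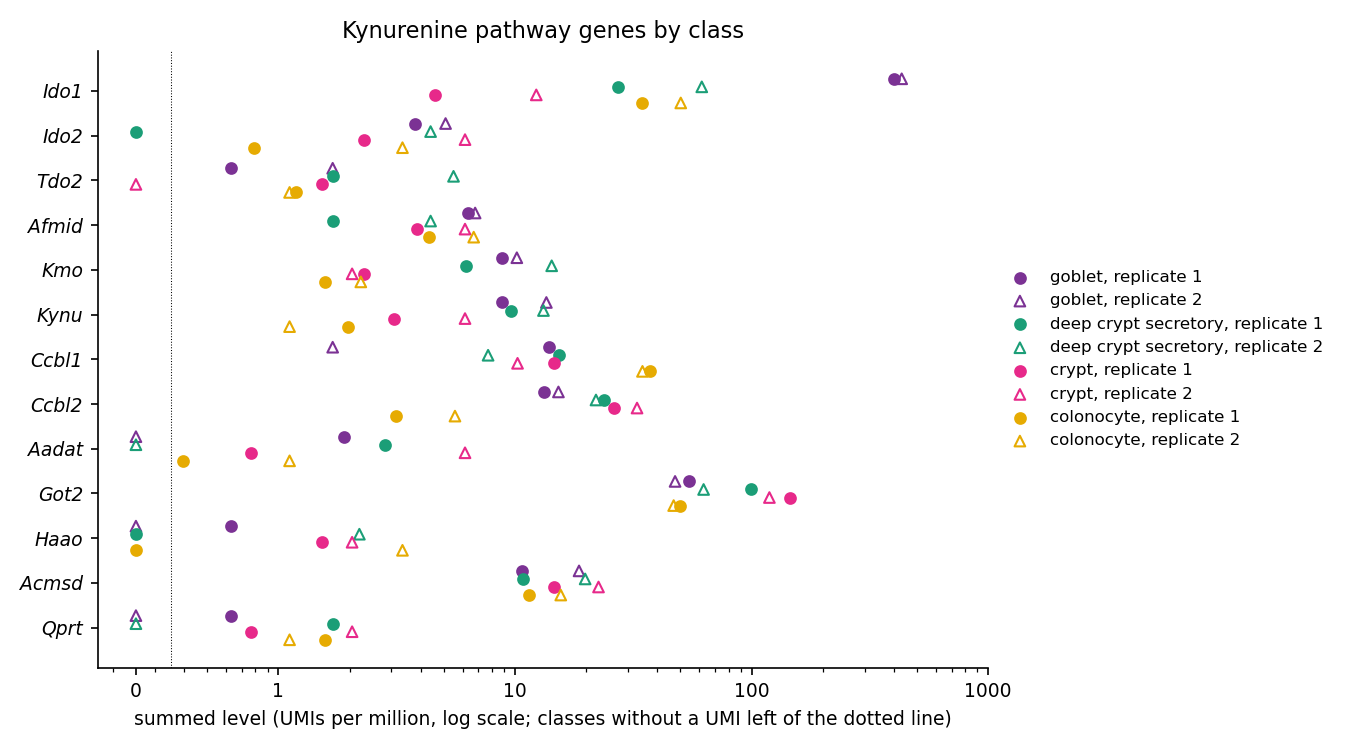
Summed levels of 13 kynurenine pathway genes (horizontal log axis, CPM) in goblet, deep crypt secretory, crypt and colonocyte barcodes, filled circles for replicate 1 and open triangles for replicate 2; classes without a UMI stand left of the dotted line. Only Ido1 passes 100 in goblet barcodes, and Kmo and Kynu lie close together in goblet and deep crypt secretory barcodes.

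UMIs were summed per class and library and tested with edgeR's quasi-likelihood test and Benjamini-Hochberg adjustment over 16048 genes, with the library as a block. The p-values cover only the spread between 2 libraries of 1 animal, which may be technical. Goblet barcodes differed from the mean of deep crypt secretory, crypt and colonocyte barcodes in 2834 genes, 17.7% of those tested, with 9.69% higher and 7.97% lower. Of 8 kynurenine pathway genes tested beside Ido1, 2 were higher and none was lower, and their median log2 fold was 0.56 against -0.06 over all genes. The higher genes were Kmo (log2 fold 1.65, SE 0.49, adjusted p = 0.0128) and Kynu (1.44, SE 0.46, adjusted p = 0.0189). Neither passed with DESeq2 (adjusted p = 0.141 and 0.145) or without the library block (0.0529 and 0.0622), and Kynu did not with thinned counts (0.542). Ido2 (1.28, adjusted p = 0.239), Afmid (0.91, adjusted p = 0.264), Ccbl2 (0.22), Acmsd (0.06), Got2 (-0.48) and Ccbl1 (-0.68) did not pass. Against deep crypt secretory barcodes alone 2687 genes, 16.7%, passed, with 8.02% higher and 8.72% lower, and none of the 8 did. At an unadjusted p under 0.05 there were 2, Ido2 and Afmid, both higher, and DESeq2, which gave 4 of the 8 an adjusted p, called none. The folds were 0.38 for Kmo and 0.25 for Kynu there, and the median of the 8 was 0.25 against -0.05 over all genes. With DESeq2 the share of higher genes among those called rose from 54.9% to 66.2% in the first comparison and from 47.9% to 59.2% in the second.

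Of 13 genes of the supply and the other uses of tryptophan, 1 was higher and 2 were lower in goblet barcodes than in the mean of the other classes (median -0.31), where 17.7% of all genes passed. Wars, the tryptophanyl-tRNA synthetase and itself an interferon-inducible gene, was higher (0.83, SE 0.11, adjusted p = 8.4e-08), at 298 and 307 CPM in goblet barcodes. It stood at 306 and 324 CPM in deep crypt secretory barcodes and at 138 and 126 CPM in colonocyte barcodes. Slc6a14, an amino acid carrier, was lower (-1.74, SE 0.20, adjusted p = 1.6e-09), with 544 and 440 CPM in colonocyte barcodes against 34.7 and 39.0 CPM in goblet barcodes. Maoa, a monoamine oxidase, was lower too (-0.91) but higher than in deep crypt secretory barcodes (0.55, adjusted p = 0.0202). It was the only gene of the 13 to pass there, against 16.7% of all genes. Maoa did not pass there without the block (adjusted p = 0.386) or with thinned counts (0.236). The large neutral amino acid carrier Slc7a5 had 11 and 1 UMIs in goblet barcodes and its partner Slc3a2 77.6 and 42.4 CPM. Tph1, of serotonin synthesis, had 6 and 2 UMIs.

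Of 12 aryl hydrocarbon receptor pathway genes, 1 was higher and 2 were lower than in the mean of the other classes (median -0.34). Over all genes 9.69% were higher and 7.97% lower there. The receptor, NAD and haem lists, of few genes each, lay near these shares. Cyp1a1, the classical target gene of the receptor, was higher (4.41, SE 0.51, adjusted p = 1.1e-09), also against deep crypt secretory barcodes (3.71, SE 0.59, adjusted p = 2.8e-06). It had 25 and 18 UMIs in 6.88% and 19.5% of goblet barcodes. The other 3 epithelial classes together held 5 and 4, namely 1 and 4 in deep crypt secretory, 1 and 0 in crypt and 3 and 0 in colonocyte barcodes. The receptor gene Ahr stood at 21.4 and 20.4 CPM in goblet barcodes and at 69.8 and 59.4 CPM in crypt barcodes. Nqo1, a quinone reductase, and Ptges3, a chaperone of the receptor, were lower (-1.55 and -0.79). In the NAD list Nmnat3 was higher (1.77, adjusted p = 1.8e-08), and Slc25a51 (-0.92) and Nadk (-0.60) were lower of 11. In the haem list Cyb5r3, a cytochrome b5 reductase, was higher (0.61), and Alad (-1.23), of haem synthesis, and Abcg2 (-0.73) were lower of 17. Of 15 genes of the amino acid deprivation response, 6 were higher, among them Chac1 (2.62), Vldlr (1.17), Asns (0.86) and Atf4 (0.62), and 2 were lower, Phgdh (-2.45) and Psat1 (-1.20), both of serine synthesis. Against deep crypt secretory barcodes, where 16.7% of all genes passed, 1 of these was higher, Chac1 (2.20), and the same 2 were lower.

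Among genes known to act on Ido1 or in interferon signalling more were higher than lower in goblet barcodes. Of 30 tested, 6 were higher and 1 was lower than in the mean of the other classes. Over all genes 9.69% were higher and 7.97% lower there. Against deep crypt secretory barcodes 8.02% of all genes were higher and 8.72% lower. The receptor chains of interleukin 4 and 13 led. Il13ra1 stood at 679 and 541 CPM in goblet barcodes and at 254 and 205 CPM in deep crypt secretory barcodes. Against the mean of the other classes its log2 fold was 2.10 (SE 0.10, adjusted p = 1.2e-22). Il4ra followed (1.13), with Ifnlr1 (0.99) and Stat2 (0.95), while Irf8 was lower (-0.97). Of the 30, 7 were higher and 1 lower than in deep crypt secretory barcodes. They were led by Il13ra1 (1.73), Irf7 (1.51), the interferon-gamma receptor gene Ifngr1 (1.38, SE 0.17, adjusted p = 3.9e-09) and Stat2 (1.24). Ifngr1 itself was highest in colonocyte barcodes, at 443 and 504 CPM against 149 and 214 CPM in goblet barcodes. Of 40 interferon-stimulated genes 6 were higher and 8 lower than in the mean of the classes (median -0.18). Gbp2 (1.75), Rsad2 (1.62), Zbp1 (1.52) and Gbp7 (1.33) were the highest, and Ifitm3 (-3.68), Ciita (-1.67), H2-Eb1 (-1.62) and Cd74 (-1.10), the last 3 of antigen presentation by class II molecules, were the lowest. Against deep crypt secretory barcodes 12 were higher and 7 lower, again with Gbp2 (1.92) and Ifitm3 (-3.58) among them. Gbp2, a guanylate-binding protein gene, stood at 314 and 265 CPM in goblet and at 265 and 306 CPM in colonocyte barcodes, where Ido1 stood at 34.3 and 50.2 CPM.

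Goblet barcodes with and without Ido1 were then compared in 1 fit of 10 sums. Positive and negative barcodes had median depths of 5707 and 4259 UMIs in replicate 1 and of 7077 and 7385 in replicate 2. Zg16 made up a median of 12.4% and 6.54% of UMIs in replicate 1 and 9.29% and 6.90% in replicate 2, and mitochondrially encoded genes 2.73% and 3.70%, and 5.57% and 6.58%. Median doublet scores were 0.46 and 0.55 in replicate 1 and 0.62 in both groups of replicate 2. Of 16090 genes 385 differed, 2.39%, with 165 higher and 220 lower in positive barcodes, and all 385 moved the same way in both libraries. With DESeq2's size factors in edgeR the split was 238 higher and 185 lower. With barcodes thinned to 2000 UMIs and shallower ones left out, 104 genes passed, 28 of them higher, and 96 of the 104 were among the 385. The Ido1 groups were formed anew from the thinned counts, with 67 and 20 positive and 180 and 46 negative barcodes. Some barcodes that held Ido1 before thinning were thus counted as negative. Results with thinned counts therefore differ in groups as well as in depth. Without the library block 22 passed, all among the 385.

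Among interferon-stimulated genes more were higher than lower in positive barcodes. Of 40 tested, 7 were higher and 1 was lower, and the median fold was 0.46 against -0.09 over all genes, of which 1.03% were higher and 1.37% lower. Gbp2 stood at 525 and 468 CPM in positive and 176 and 136 CPM in negative barcodes (log2 fold 1.78, SE 0.17, adjusted p = 1.1e-17). Tap2, of peptide transport for class I molecules, stood at 162 and 206 against 94.1 and 69.2 CPM (1.18, SE 0.22, adjusted p = 3.7e-05). In both genes the positive groups lay above the negative groups in each library. Igtp (0.88), Gbp7 (0.86), Irgm1 (0.80) and Tapbp (0.61) were higher by less. Cxcl9, a chemokine gene induced by interferon-gamma, had 29 and 17 UMIs against 8 and 2 (2.99, SE 0.49, adjusted p = 9.2e-07). It rested on 7 and 2 positive barcodes, and 1 barcode held 48.3% of its positive UMIs in replicate 1 and another 94.1% in replicate 2. Bst2 was lower (-2.32, adjusted p = 0.00312), with 6 and 0 UMIs against 39 and 12. With thinned counts 1 of these 8, Gbp2, passed, and without the library block 2 did, Gbp2 and Cxcl9.

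Of the 30 regulators 2 were higher, Irf7 and Ifngr1, where 1.03% of all genes were higher and 2.39% passed in either direction. Irf7 stood at 103 and 123 CPM against 39.7 and 49.8 CPM (1.48, SE 0.27, adjusted p = 2.6e-05), and Ifngr1 at 185 and 289 CPM against 126 and 166 CPM (0.78, SE 0.19, adjusted p = 0.00495). Irf1, an interferon-induced transcription factor gene, did not pass (0.34, SE 0.23, adjusted p = 0.631), nor did Socs1 (0.02, SE 0.45, adjusted p = 0.993), a feedback inhibitor of cytokine signalling, and both had opposite signs in the 2 libraries. Without the library block neither Irf7 nor Ifngr1 passed. Ifngr1 also did not pass with thinned counts (adjusted p = 0.486), in the highest Zg16 tercile (0.127) or in the lowest deep crypt tercile (0.717). Irf7 passed with thinned counts (0.0231) and in the lowest deep crypt tercile (0.0203), but not in the highest Zg16 tercile (0.326). None of the 8 kynurenine genes tested beside Ido1 passed (median -0.43), nor did any of 11 NAD, 17 haem, 12 aryl hydrocarbon receptor or 15 amino acid deprivation genes. At an unadjusted p under 0.05 there were 0 kynurenine and 0 haem genes and 1 of each other list, namely Nmnat2, Tiparp and Asns. DESeq2 called none and gave an adjusted p for 1 kynurenine, 4 NAD, 4 haem, 2 receptor and 2 deprivation genes. The precision was low, with an SE of 0.33 for Got2 and 0.88 for Afmid among the kynurenine genes. In simulated sums of this comparison 20% of genes changed 2-fold and 90% of genes changed 4-fold were found. The simulated sums had no difference between libraries. Their dispersion, the spread beyond counting error, was fixed above the 0.00919 estimated from the data. The changed genes were drawn only from genes with more goblet UMIs than any of these kynurenine genes except Got2. The simulated shares therefore do not apply to genes as low as those. Of the 13 tryptophan genes 1 passed, Slc6a14, which was lower (-1.71, SE 0.42, adjusted p = 0.00484) with 15.9 and 8.75 CPM against 47.0 and 58.1 CPM. It did not pass without the block (adjusted p = 0.303) or with thinned counts (0.532).

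Goblet products moved in both directions. Of 19 tested, 7 were higher and 2 lower (median 0.06 against -0.09 over all genes, of which 1.03% were higher and 1.37% lower). Of these 9 calls, 0 passed without the library block, 5 with thinned counts, 2 in the highest Zg16 tercile of goblet barcodes and 3 in the lowest deep crypt tercile. Clca1, a mucus metalloprotease gene, stood at 41291 and 28132 CPM in positive and 16806 and 13720 CPM in negative barcodes (1.29, SE 0.12, adjusted p = 4.6e-20). Slpi, a protease inhibitor gene, stood at 2030 and 3234 CPM against 1315 and 1354 CPM (1.05). Spink1 (0.90), Tff3 (0.76), Fcgbp (0.65) and Muc13 (0.45) were higher by less, as was Zg16 itself (0.71, SE 0.12, adjusted p = 1.1e-06), which passed neither with thinned counts (0.290) nor without the block (0.723). Muc2 did not pass (0.17, SE 0.11, adjusted p = 0.603), at 28696 and 20658 CPM against 25565 and 21593 CPM. Ang4, an angiogenin of mucosal defence, was higher (2.74, SE 0.48), with 52 and 4 UMIs against 14 and 0, from 9 and 4 positive barcodes. Guca2a, the guanylin gene, was lower (-1.03, SE 0.18, adjusted p = 1.0e-05), but turned to 0.041 in the highest Zg16 tercile (adjusted p = 1.0). Pla2g2a was lower too (-1.59), and did not pass with thinned counts (adjusted p = 0.214) or in the lowest deep crypt tercile, where its fold was -0.29. Of 23 granule and glycan genes Rab27a, of granule transport, was higher (0.96) and C1galt1c1 (-0.70) and St3gal6 (-0.71) were lower, and none of the 3 passed with thinned counts or without the block. St3gal6 turned to 0.18 in the lowest deep crypt tercile (adjusted p = 0.979). Of 23 secretory factor and unfolded protein genes only Pdia5 passed (-1.33), against 2.39% of all genes. Pdia5 did not pass with thinned counts or without the block.

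Of 30 surface and differentiation genes 7 were higher and 2 lower (median 0.20 against -0.09 over all genes). Over all genes 1.03% were higher and 1.37% lower, also the shares to set beside the proliferation and mitochondrial counts below. Of these 9 calls, 2 passed without the library block (Sprr1a and Cldn4), 3 with thinned counts, 2 in the highest Zg16 tercile and 3 in the lowest deep crypt tercile. Sprr1a (2.80, SE 0.38), a cornified envelope gene, Cldn4 (2.04, SE 0.40), a tight junction gene, Mxd1 (1.11, SE 0.14), a Myc antagonist, and Lgals3 (0.92, SE 0.12), a galectin gene, were higher, followed by Muc1 (0.88), Ifrd1 (0.82) and Ceacam1 (0.39). Muc3 (-1.09) and Ier2 (-0.63) were lower, and Muc3 turned to 0.81 in the highest Zg16 tercile (adjusted p = 0.781). The colonocyte markers Krt20 (0.99, SE 0.13, adjusted p = 9.2e-10) and Lypd8 (0.48, SE 0.12, adjusted p = 0.00366) were higher as well, and neither passed without the block (0.421 and 0.812). Reg4, a deep crypt marker, was lower (-1.46, SE 0.16, adjusted p = 9.4e-15), at 255 and 411 CPM against 1225 and 612 CPM, so that the groups did not overlap. Its fold was 0.40 in the highest Zg16 tercile (adjusted p = 0.832) and -0.21 in the lowest deep crypt tercile (0.972), and it did not pass without the block (0.0777). Ccl6, another deep crypt marker, did not pass (-0.32, SE 0.13, adjusted p = 0.228). Of 22 proliferation genes Ccnd2, cyclin D2, was the only one to pass (-1.14, SE 0.16), but it turned to 0.37 in the highest Zg16 tercile (adjusted p = 0.832) and did not pass without the block (0.315). Of 13 mitochondrially encoded genes mt-Nd1 (-0.39) and mt-Nd2 (-0.44) were lower, and neither passed with DESeq2's size factors in edgeR or without the block. Krt20, Lypd8, Reg4, Ccl6 and Zg16 are named here because they served to define classes, and they are only part of the markers that did.

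The largest folds rested on few molecules. The 12 largest higher folds belonged to Pip, Pcbp4, Il1f5, Hkdc1, Gm14573, Fam65b, Cxcl9, Cyp2d12, Sprr1a, Ang4, Slfn4 and Psca, with 7 to 235 UMIs over both groups. Pip (9 UMIs), Pcbp4 (8), Il1f5 (8) and Hkdc1 (7) had none in negative barcodes. Against a floor of 3 UMIs over both negative groups Pip was at least 4.61-fold higher, Pcbp4 and Il1f5 at least 4.10-fold and Hkdc1 at least 3.59-fold. Slfn4, a schlafen family gene induced by interferon, stood at 239 and 162 CPM against 31.4 and 49.8 CPM (2.65, SE 0.28, adjusted p = 1.7e-15). Psca stood at 85.9 and 65.6 CPM against 15.7 and 13.8 CPM (2.52, SE 0.41). The 12 largest lower folds had 14 to 35 UMIs in all. Ldb3, Baiap2l2, Slc25a32, Lyrm4, Nodal and Scoc had none in positive barcodes, and the fold of Nodal was 0.068 in the highest Zg16 tercile. Against a floor of 3 UMIs over both positive groups they were at least 5.203-fold (Ldb3), 4.55-fold, 3.90-fold, 3.25-fold, 3.04-fold and 3.04-fold lower. Timm10, Fads2, Snhg1, Isg20 and Bccip were also among the 12, with ratios of positive to negative between 0.0769 (0.00186 to 0.481) and 0.154 (0.0300 to 0.494). Isg20, an interferon-stimulated gene by its name but not in the list tested above, had 3 and 0 UMIs against 29 and 3 (-2.59, SE 0.74, adjusted p = 0.0287). With thinned counts 2 of the 6 higher genes still tested passed, Ang4 and Slfn4, and 0 of the 11 lower genes. Of all 385 genes 74 had fewer than 100 UMIs.

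A smaller set held its side in the fits that narrow the class. Among only the goblet barcodes of the highest Zg16 tercile 33 genes passed, and among only those of the lowest deep crypt tercile 65 did. In these fits the median of all genes lay 0.16 and 0.12 above that of the first fit, and 0.17 below it with thinned counts. Both fits were added after the data had been seen. The 17 genes that passed in these 2 fits, with thinned counts and in the first fit were all higher in positive barcodes, and 11 of them also passed without the library block. By their folds they were Slfn4, Duoxa2, 2010109I03Rik, Atp12a, 2210407C18Rik, Gbp2b, Rab3b, Gbp2, Sectm1b, Sprr2a2, Saa1, Clca1, Duox2, Gm29123, Slpi, Ly6a and Gm20594, a set chosen after its values were seen. Clca1, Duox2, Gm29123, Slpi, Ly6a and Gm20594 were the 6 that did not pass without the block.

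Duox2, the epithelial NADPH oxidase that makes hydrogen peroxide, and Duoxa2, the factor its maturation needs, were both in the set. Duoxa2 stood at 89.1 and 179 CPM in positive and 29.3 and 11.1 CPM in negative barcodes (2.43, SE 0.30, adjusted p = 4.8e-11). Duox2 stood at 369 and 508 CPM against 180 and 205 CPM (1.28, SE 0.17, adjusted p = 1.6e-10). Atp12a, a proton and potassium pump that also served as a colonocyte marker, stood at 194 and 420 CPM against 59.6 and 72.0 CPM (2.16, SE 0.21, adjusted p = 1.4e-17). Rab3b, a small GTPase of secretory vesicles, stood at 345 and 350 CPM against 105 and 114 CPM (1.81, SE 0.21). Each of these 4 genes was higher in both libraries than in either negative group. Saa1, a serum amyloid A gene, stood at 4299 and 3243 CPM against 1399 and 1504 CPM (1.53, SE 0.13), and Sprr2a2, a small proline-rich protein gene, at 11333 and 18225 CPM against 4196 and 5654 CPM (1.67, SE 0.12). Gbp2b, a second guanylate-binding protein gene, stood at 337 and 333 CPM against 115 and 83.1 CPM (1.81, SE 0.20), and Ly6a, which interferon induces, at 1542 and 1882 CPM against 1009 and 833 CPM (0.99, SE 0.13). Sprr2a2, Saa1, Gbp2 with Gbp2b, Slfn4 and Ang4 have near-identical relatives, among which the counting can split reads.

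**Figure D5:**
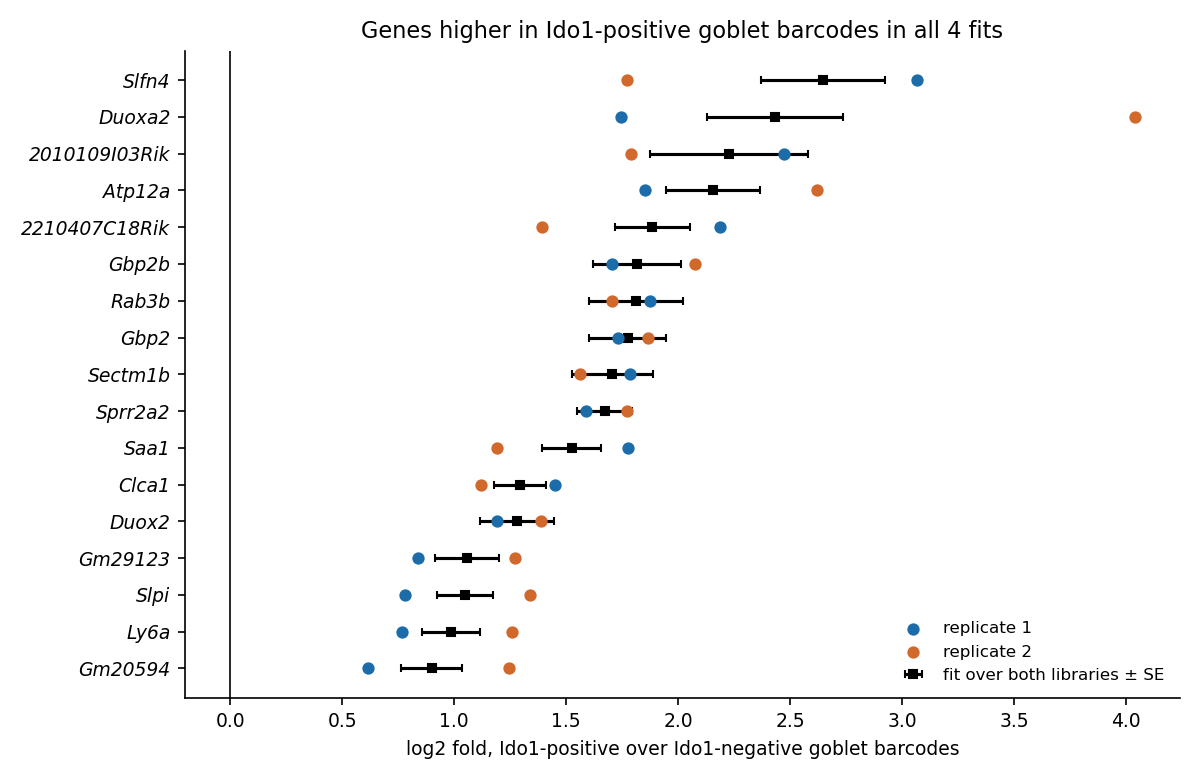
The 17 genes that passed in all 4 fits, with the log2 fold of Ido1-positive over Ido1-negative goblet barcodes on the horizontal axis. Black squares give the fit over both libraries with its SE and coloured points the log2 ratio within each library; all points lie above 0, from Slfn4 at 2.65 to Gm20594 at 0.90 in the fit.

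For 3 of these genes the same barcodes are given by the presence of the gene, a description of the split that chose them and no further evidence. In replicate 1, 38 of 60 goblet barcodes with a Slfn4 UMI held Ido1 (63.3%) against 76 of 260 without one (29.2%), and in replicate 2, 10 of 19 (52.6%) against 21 of 63 (33.3%). For Duoxa2 the shares were 56.1% of 57 against 31.2% of 263, and 81.0% of 21 against 23.0% of 61. For Gbp2 they were 49.7% of 157 against 22.1% of 163, and 48.7% of 39 against 27.9% of 43. In replicate 2 the intervals overlapped for Slfn4 and for Gbp2. The barcodes with a UMI were deeper in each case, for Gbp2 at medians of 6338 against 2972 and 9496 against 2788 UMIs, and the part of depth in these shares was not tested.

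Likeness to Ido1 was measured over goblet barcodes as Pearson's r of log2(CPM + 100), in each library on its own and over 5048 genes with a UMI in at least 10% of goblet barcodes. Barcodes of 1 library share its depth and sparsity, so r is given as a description. The 10 genes with the highest mean r were Duoxa2 (r 0.29 over 320 barcodes of replicate 1 and 0.61 over 82 of replicate 2), Sprr2a2 (0.45 and 0.45), Clca1 (0.41 and 0.41), Saa1 (0.43 and 0.32), Duox2 (0.36 and 0.40), Irf7 (0.30 and 0.45), Gbp2 (0.38 and 0.36), Gbp2b (0.38 and 0.35), 2210407C18Rik (0.44 and 0.29) and Zg16 (0.41 and 0.26). The median of all genes was -0.03 and -0.04 and the 95th percentile 0.12 and 0.20. The 10 highest of replicate 1, which add Tff3 and Mxd1 to 8 of these names, lay between 0.24 and 0.45 in replicate 2, all above its 95th percentile.

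Markers of cells known for Ido1 were counted in goblet barcodes with and without it. At least 1 UMI of 14 dendritic and myeloid markers was held by 27.2% and 48.4% of positive and by 29.1% and 56.9% of negative barcodes. The 14 dendritic and myeloid markers summed to 62.0 and 91.9 CPM in positive and to 74.2 and 155 CPM in negative goblet barcodes, and 10 and 5 of them had a UMI in the positive groups. Lyz2, Tyrobp, Cd68 and Fscn1 were at 0 in the positive barcodes of both libraries, and Tyrobp in the negative barcodes of both, with Lyz2 and Cd68 also at 0 in the negative barcodes of replicate 2. Flt3 had a UMI in positive but not in negative barcodes of replicate 1. The part of these cells in the Ido1 values was not tested. The 12 T cell markers summed to 38.2 and 83.1 CPM in positive and 65.8 and 108 CPM in negative barcodes. B and plasma cell markers stood at 36.6 and 21.9 CPM against 24.04 and 33.2 CPM, stromal markers at 22.3 and 43.8 against 27.2 and 55.4 CPM, tuft markers at 103 and 166 against 109 and 155 CPM and enteroendocrine markers at 33.4 and 21.9 against 20.9 and 22.2 CPM. In summed level no list was higher in the positive barcodes of both libraries. In the share of barcodes with at least 1 UMI, tuft and enteroendocrine markers were. Tuft markers were held by 42.98% and 58.06% of positive against 32.04% and 50.98% of negative barcodes. For enteroendocrine markers the shares were 14.91% and 16.13% against 9.709% and 13.73%. No other list had a higher share in both libraries, and the part of depth in these shares was not tested.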

How the data were processed

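The 2 tables of whole-number UMI counts per gene and barcode were used as the authors deposited them, with 1738 and 664 barcodes, 8602490 and 3951918 UMIs and medians of 4615.5 and 4756.5 UMIs per barcode. Per the labels they come from inDrop with CEL-Seq libraries, and the submitters' processing notes name GRCh38 and GRCm38; the sources used here do not state aligner, annotation, strand or barcode filter. Barcodes carry running numbers, so shared barcodes cannot be counted by name, and 0 had identical counts in both libraries.

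Simulated pairs of barcodes gave a doublet score, and the top 5% of each library (87 and 33) were left out. Non-goblet barcodes had under 2% Zg16. Those with T cell genes (at least 4 UMIs and 0.15% of UMIs) were lymphocyte, then deep crypt secretory (Reg4, Nov, Ccl6, Txndc5 and Kit, 0.3% and 3 UMIs), colonocyte (2%) and crypt (0.1% and 3 UMIs), and the rest had no class. Counts were summed by class and library and tested with edgeR 4.0.16 (R 4.3.3, quasi-likelihood, TMM, library as block, at least 20 UMIs over the sums) at an adjusted p of 0.05. Ido1 was kept in the fits but left out of the reported results and the adjustment. The genes used to define the classes were left out in the same way in the class comparisons. The test was tried on simulated data, and DESeq2 1.42.0 was an alternative. Ratio intervals are exact.

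The members and gene lists were chosen with earlier results of these data known. Genes named were the 12 largest folds in each direction moving alike in both libraries, up to 4 per list and direction for the class comparisons, every kynurenine gene, and the 10 genes most like Ido1; 1 gene that the rule takes is not reported here. All called list members are also named in the Ido1 comparison, and only pathway and interferon lists are given for the class comparisons. The same library pairs the classes by construction.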

Additional observations from a re-analysis of the deposited data

How the results depend on the processing

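The share of Ido1-positive goblet barcodes over both libraries was 36.1% and the level 407 CPM, against 35.6% and 37.8% and 399 and 431 CPM with either library left out. With the Zg16 limit at 1% they were 28.2% and 343 CPM, and at 4% 42.7% and 468 CPM. Thinning to 2000 UMIs gave a share of 27.8%, and leaving the UMIs of Zg16 and Muc2 out of the total gave 462 CPM.

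Genes called for goblet barcodes against the mean of the other classes numbered 2834, against 1617 with DESeq2 and 1238 with thinned counts. Against deep crypt secretory barcodes they numbered 2687, against 1450 and 1135. Between Ido1-positive and Ido1-negative barcodes there were 385, against 104 with thinned counts, 33 in the highest Zg16 tercile and 65 in the lowest deep crypt tercile, the last 2 chosen after seeing the data. Without the replicate block that pairs classes of 1 library the counts were 1396, 1012 and 22. The cause of these differences was not tested. Thinned counts and terciles hold fewer UMIs or barcodes and test fewer genes, and with thinned counts the Ido1 groups were also formed anew.

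Of 155 single-gene calls 97 were lost without the block, and 10 with DESeq2's size factors. With thinned counts 79 were lost and 64 kept, and with DESeq2 32 were lost and 96 kept, among genes with an adjusted p. In the highest Zg16 tercile the sign turned for Nodal (0.068), Guca2a (0.041), Muc3 (0.81), Ccnd2 (0.37) and Reg4 (0.40), and in the lowest deep crypt tercile for St3gal6 (0.18). Each library alone gave all 155 the same direction, but leaves 1 sum per class and so no test. The largest folds had been taken only from genes that moved alike in both libraries, and all 385 calls of the Ido1 comparison did. For these genes the agreement was therefore given by the choice and is no further evidence.

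Depth limits low genes most: the 8 kynurenine genes tested beside Ido1, Got2 excepted, had 6 to 22 UMIs in goblet barcodes of replicate 1 and 1 to 11 in replicate 2.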

Other observations

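Among the 5048 genes compared with Ido1 over goblet barcodes, those with the lowest mean r were mostly ribosomal or otherwise highly expressed in all cells. They included Rplp0 (r -0.46 in replicate 1 and -0.42 in replicate 2), a ribosomal stalk gene, Rps24 (-0.43 and -0.43), a ribosomal protein gene, Ppia (-0.48 and -0.38), cyclophilin A, and Tpt1 (-0.48 and -0.30). These genes were chosen after their values were seen, and the part of Zg16 UMIs, which take up a share of each barcode's total, was not tested.

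Barcodes assigned to no class held Ido1 in 20 of 225 (8.89%) in replicate 1 and 12 of 173 (6.94%) in replicate 2, at 28.6 and 25.2 CPM and median depths of 2523 and 2764 UMIs.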
